A study of Mus musculus with 26 samples.

Results

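The nuclear genes for oxidative phosphorylation encode the subunits of the mitochondrial respiratory chain and of ATP synthase that are made in the cytosol and imported. They were taken by gene symbol from the deposited count table, as every row whose name begins with the stems of the complex I (Ndufa, Ndufb, Ndufc, Ndufs, Ndufv), complex II (Sdha to Sdhd), complex III (Uqcr), complex IV (Cox4 to Cox8) and complex V (Atp5) subunits, without rows marked as pseudogenes. This gave 87 of the 26264 rows, of which 83 were among the 16566 genes with enough counts to be tested. By complex the 87 were 38 genes of complex I, 4 of complex II, 8 of complex III, 20 of complex IV and 17 of complex V. Ndufa4 and Ndufa4l2 carry complex I names and were counted with complex IV, where the Ndufa4 protein sits.

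RNA was sequenced from cultured mouse femoral osteoblasts, the cells that deposit bone matrix, in 18 libraries that form 6 groups of 3. YOUNG and OLD were wild-type C57BL/6J cells from animals aged 3 and 18 months. CKO-YOUNG and CKO-OLD were Kdm2bfl/fl Ocncre Ai14 cells, in which the osteocalcin-promoter Cre removes the CxxC (DNA-binding) domain of Kdm2b, a Polycomb PRC1.1 subunit, and Ai14 is the fluorescent Cre reporter. CON-YOUNG was the Ocncre Ai14 control. CON-OLD-iBP cells were old controls that received iBP, a name the labels do not expand, and no age in months is given for the CON and CKO groups. All cells were cultured in the same serum-containing medium, and because Ocncre acts in mature osteoblasts, cells of other stages or types in a culture keep the undeleted allele. The groups hold no untreated old Ocncre Ai14 control, so CKO-OLD and CON-OLD-iBP were set against OLD, from which they differ in mouse line as well, and line and deletion (or line and iBP) cannot be told apart there. The labels do not tell whether the 3 libraries of a group came from different animals or cultures. The spread that the p-values rest on is that of these libraries and could be technical.

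Electrons from NADH enter the chain at complex I and those from succinate at complex II, pass through complex III and cytochrome c to complex IV, and the proton gradient built on the way drives ATP synthase, complex V. Complexes I, III, IV and V join large core subunits to small accessory proteins, while complex II has only the subunits Sdha to Sdhd. Several complex IV subunits, and Ndufa4, have an alternative isoform gene used in particular tissues or at low oxygen. Osteoblasts use both glycolysis and respiration while they make matrix. Many of the nuclear subunit genes have promoters that bind NRF1, the ETS-family factor GABP or YY1.

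Promoters of 4 members are printed to show how alike or unlike these genes can be at their start sites. The windows come from RefSeq (GRCm38.p6), each 300 bases long, ending shortly after the start of the gene and written 5′ to 3′ on the gene's strand. Uqcrc1 was chosen as one of the steadiest members across the libraries and Atp5k as one of the most variable, Sdha as the member with the smallest adjusted p of all comparisons, and Sdhb as another subunit of the same enzyme, all after their values had been seen. Capitals mark every match to the NRF1 core GCATGCGC or the ETS core CCGGAAG on either strand. The Uqcrc1 window is chr9:108936398-108936697 on the + strand, the Atp5k window is chr5:108434350-108434649 on the - strand, the Sdhb window is chr4:140961021-140961320 on the + strand, and the Sdha window is chr13:74350191-74350490 on the - strand.
Uqcrc1: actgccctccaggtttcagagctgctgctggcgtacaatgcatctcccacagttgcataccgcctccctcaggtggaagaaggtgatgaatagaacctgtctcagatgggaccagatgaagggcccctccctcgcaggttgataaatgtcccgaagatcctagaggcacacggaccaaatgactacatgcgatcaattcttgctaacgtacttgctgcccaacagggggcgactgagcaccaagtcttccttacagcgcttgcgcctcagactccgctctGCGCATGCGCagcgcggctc
Atp5k: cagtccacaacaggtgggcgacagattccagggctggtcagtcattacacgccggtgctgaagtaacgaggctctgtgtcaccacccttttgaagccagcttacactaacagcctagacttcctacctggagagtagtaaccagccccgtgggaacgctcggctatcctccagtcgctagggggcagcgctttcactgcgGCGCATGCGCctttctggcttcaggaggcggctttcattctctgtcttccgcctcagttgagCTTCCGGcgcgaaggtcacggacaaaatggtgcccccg
Sdhb: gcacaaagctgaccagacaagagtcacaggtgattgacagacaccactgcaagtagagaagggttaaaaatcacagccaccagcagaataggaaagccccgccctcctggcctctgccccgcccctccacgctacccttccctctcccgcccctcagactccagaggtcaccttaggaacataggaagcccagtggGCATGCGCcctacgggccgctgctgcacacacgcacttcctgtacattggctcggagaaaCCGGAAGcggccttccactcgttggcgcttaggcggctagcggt
Sdha: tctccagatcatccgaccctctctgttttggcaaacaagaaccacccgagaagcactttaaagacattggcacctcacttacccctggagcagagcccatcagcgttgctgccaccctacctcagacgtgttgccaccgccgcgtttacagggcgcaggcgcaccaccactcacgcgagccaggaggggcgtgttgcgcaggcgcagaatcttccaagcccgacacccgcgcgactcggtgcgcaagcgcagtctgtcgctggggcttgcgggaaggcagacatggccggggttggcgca
In Uqcrc1 and Atp5k the 2 NRF1 matches overlap, 1 on each strand, in a palindrome. Sdhb holds 1 NRF1 match and 1 ETS match, Atp5k adds 1 ETS match on the opposite strand, and the Sdha window holds neither motif and no YY1 core (AAGATGGCG). Among the 69 members with a RefSeq promoter window, 10 (14.5%) held the NRF1 core, against 3.05% of 27025 genes with such a window. The ETS core was found in 17 members (24.6%, against 9.93%) and the YY1 core in 7 (10.1%, against 1.64%). A match is a description of letters and not of binding. Atp5k and Uqcrc1 hold the same palindrome, while their levels ranged over 6.87-fold and 1.5-fold across the libraries.

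Library totals, in units of 1e+06 counts, ran from 46.27 to 77.7, and values are given as CPM, the counts per such unit after TMM (a correction of library size by edgeR). CPM is not divided by gene length, so levels are compared between samples and not between genes. The libraries fell into 3 sets by the share of counts on the nuclear RNA Malat1 and by group label: set 1 (YOUNG 1 and 2, OLD 1 and 3), set 2 (CON-YOUNG 1 and 2, CKO-YOUNG 1 and 2), both under 0.05%, and set 3, the other 10 libraries, above it. Set and group therefore cannot be fully told apart. Transcripts of the sex chromosomes ran with the sets: Xist, the RNA of the inactive X, was at 391 to 481 CPM in set 1, where the Y-linked Ddx3y was at 0, and elsewhere Ddx3y was at 21.3 to 91.8 CPM with Xist under 0.5 CPM, except in CKO-YOUNG 3, which held 372 CPM of Xist and 21.3 CPM of Ddx3y. The part of this difference in the results was not tested. In OLD against YOUNG both groups held both kinds, as YOUNG 3 and OLD 2 were the libraries with Ddx3y. Where YOUNG or OLD is set against another group, the difference moves in part with the groups. OLD 1 and OLD 3 were far more alike than any other pair (their squared difference was 6.22 times what counting alone gives, where every other pair within a group had 15.5 to 188 times). Kdm2b counts cover the whole gene and do not test the CxxC deletion: they ran from 27.6 to 58.2 CPM in CKO-YOUNG, 19.9 to 52.9 CPM in CON-YOUNG, 23.4 to 57.2 CPM in CKO-OLD and 19.3 to 34.3 CPM in OLD. Osteoblast markers were high throughout, at 15589 to 67015 summed CPM, and macrophage markers summed to 10184 to 15870.3 CPM in set 1, 155 to 223 CPM in set 2 and 478 to 5911 CPM in set 3. In bulk samples, fewer cells of a type and less RNA per cell cannot be told apart.

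The 4 members that were not tested are tissue-restricted or duplicate genes with next to no counts. Cox8b, the heart and muscle isoform of subunit 8, had 9 counts over all libraries, Cox7b2 had 10 counts, Ndufa11b had 13 and Cox8c had 0. Of the 87 members, 28 overlap another gene in the GRCm38 annotation, 17 of them a protein-coding one, and many have processed pseudogenes, so small differences in their counts are uncertain. Among those named below, Ndufa4l2 overlaps Shmt2, Cox4i2 overlaps Bcl2l1, Cox7a2 overlaps Tmem30a, Ndufa1 overlaps Rnf113a1, Atp5md overlaps Taf5, Uqcrc2 overlaps Pdzd9 and Cox6a2 overlaps Itgad.

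The widest pattern across the 18 libraries was a low level of the small subunits in the 4 set 2 libraries. In all 4 of them, 46 of the 83 tested members (55.4%) were lower than in every library of the other sets, against 9.33% of the 16566 genes tested, and 1 member was higher in all 4, against 11.3% of genes. The same groups' replicate 3 libraries, CON-YOUNG 3 and CKO-YOUNG 3, did not share it as a whole (their role medians of small subunits lay between -0.05 and 0.49). It is given as a description, without a test. Summed over complex IV, the set 2 libraries held 953 to 1026 CPM, set 1 held 1559.7 to 2014 CPM and set 3 held 1394 to 2442 CPM. Summed complex I levels were 1373 to 1473 CPM in set 2, 1895 to 2327 CPM in set 1 and 1619 to 2643 CPM in set 3. Neither complex overlapped between set 2 and the others. Complex II, at 411 to 426 CPM in set 2 and 355 to 465 CPM in set 3, and complex V, at 2634 to 2953 CPM in set 2 and 2333 to 2997 CPM in set 3, did overlap.

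**Figure D1:**
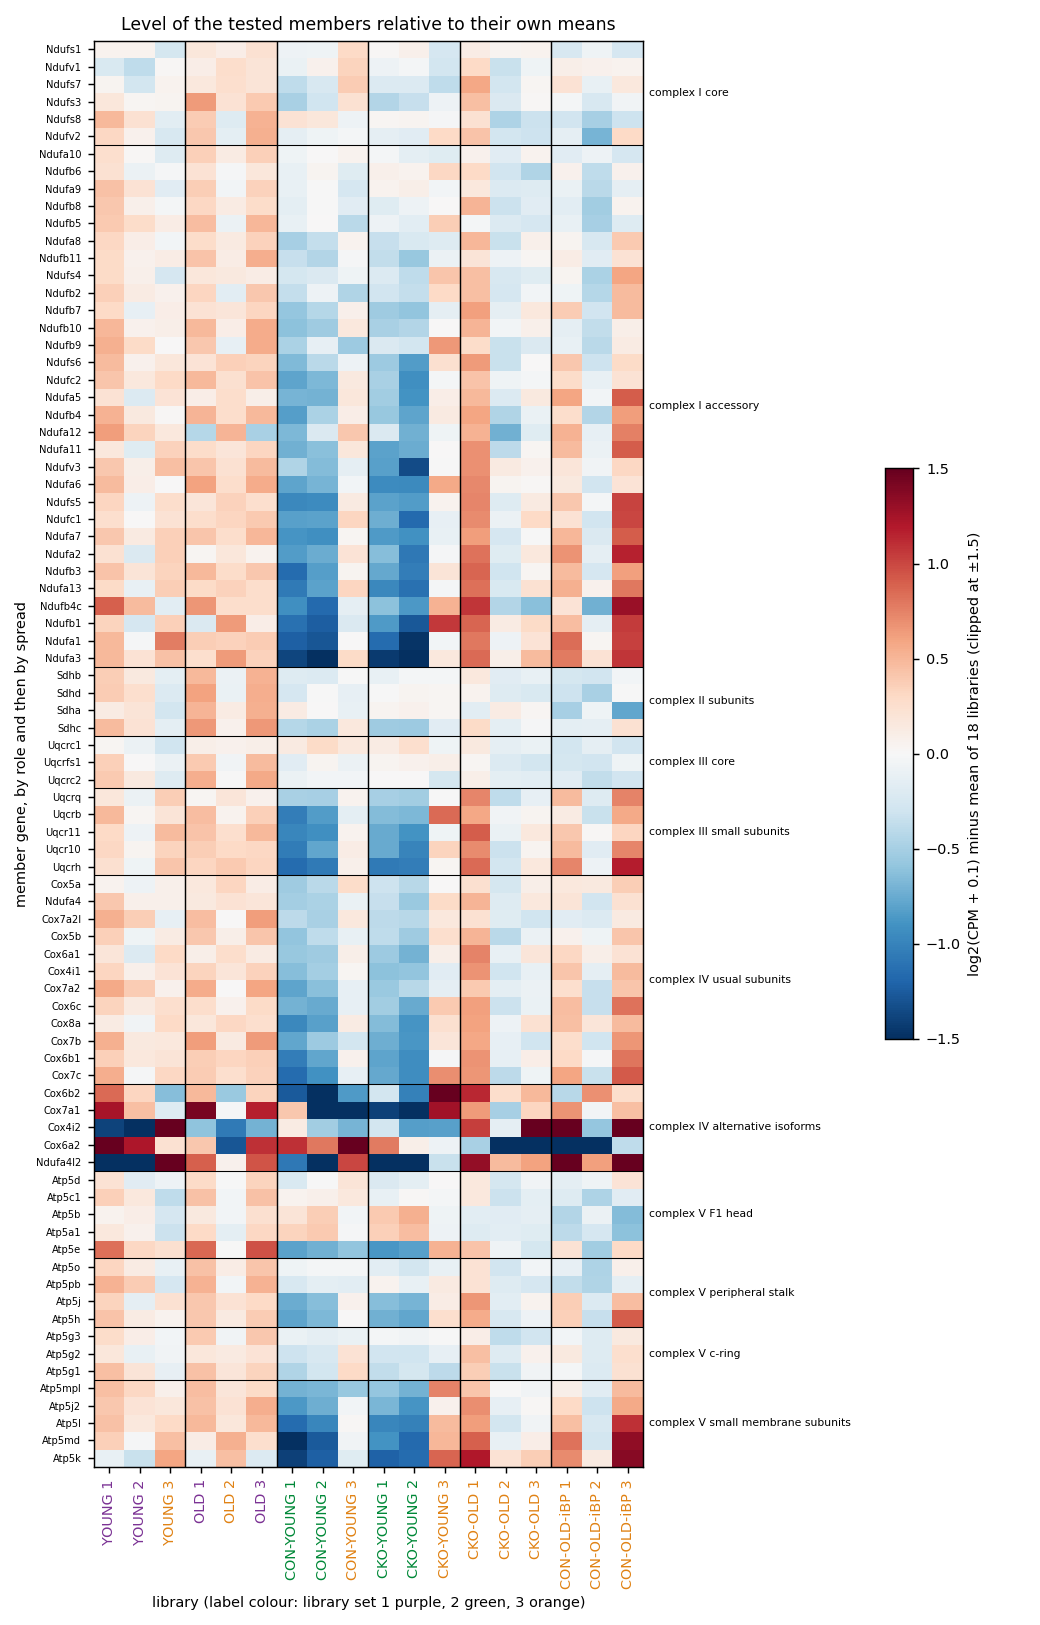
Level of the tested members, 1 left out (rows, by role and then by spread) in the 18 libraries (columns), as log2(CPM + 0.1) minus the member's mean over the libraries, clipped at 1.5 in either direction. Blue bands in CON-YOUNG 1 and 2 and CKO-YOUNG 1 and 2 cover most complex I accessory, complex III small, complex IV usual and complex V small membrane subunits, and the core subunit rows stay pale.

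In complexes I, III and V the pattern was more frequent among accessory or small subunits than among the core ones. This grouping by textbook role was made after the values had been seen. No protein sizes were used, so small and large name the roles. All 5 small subunits of complex III were lower in set 2 than in every other library, and 0 of its 3 large ones (the core proteins Uqcrc1 and Uqcrc2 and the Rieske iron-sulfur protein Uqcrfs1). In complex I, 19 of 30 accessory subunits showed the pattern and 1 of the 7 core subunits that hold the NADH site and the iron-sulfur clusters. In complex V it held for all 5 small membrane subunits, 2 of 4 peripheral stalk subunits, 1 of 3 c-ring genes and 1 of 5 subunits of the catalytic F1 head, which was Atp5e, its small epsilon subunit. Of the usual complex IV subunits, all nuclear-encoded and none catalytic, 11 of 12 showed it, and 0 of the 5 tested alternative isoforms. Complex II, which has no shell of small proteins, had 1 of 4, Sdhc, a membrane anchor.

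Uqcrh, the hinge protein of complex III next to cytochrome c1, shows the pattern. Its level was 38.3 and 41.0 CPM in CON-YOUNG 1 and 2 and 40.7 and 41.7 CPM in CKO-YOUNG 1 and 2, and 90.1 and 87.3 CPM in the replicate 3 library of those groups. In the other groups it was 101, 81.7 and 114 CPM in YOUNG, 107, 112 and 107 CPM in OLD, 153, 70.8 and 95.3 CPM in CKO-OLD and 141, 81.2 and 193 CPM in CON-OLD-iBP. The 4 set 2 libraries lay far below the rest, and CON-OLD-iBP 3 and CKO-OLD 1 were the highest. Uqcrc1, a large core protein of the same complex, was 197, 218 and 199.9 CPM in CON-YOUNG and 196, 214 and 171 CPM in CKO-YOUNG. Its values elsewhere were 183, 169 and 145 CPM in YOUNG, 191, 187 and 190.1 CPM in OLD, 199, 163 and 168 CPM in CKO-OLD and 148, 163 and 147 CPM in CON-OLD-iBP. The set 2 libraries were thus at or near the top for Uqcrc1 and at the bottom for Uqcrh.

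Complex V gave the same contrast. Atp5k, the e subunit of the membrane part, was 6.61 and 7.46 CPM in CON-YOUNG 1 and 2, 7.52 and 7.86 CPM in CKO-YOUNG 1 and 2, and 13.9 to 45.5 CPM in the other libraries. Atp5b, the catalytic beta subunit, was 875 and 987 CPM in CON-YOUNG 1 and 2, 1007 and 1102 CPM in CKO-YOUNG 1 and 2, and lower (745 and 731 CPM) in the replicate 3 libraries of those groups. Ndufa3, a small complex I accessory subunit, had the widest range in that complex, from 12.2 CPM in CKO-YOUNG 2 to 92.5 CPM in CON-OLD-iBP 3 (7.58-fold). Ndufs1, the largest core subunit of complex I, had the narrowest range of all members, from 71.2 CPM in YOUNG 3 to 105 CPM in CON-YOUNG 3 (1.48-fold). Across the tested members, 20 varied by under 2-fold and 29 by over 3-fold, and the median SD of log2(CPM + 0.1) over the 18 libraries was 0.41, against 0.57 for all genes tested.

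**Figure D2:**
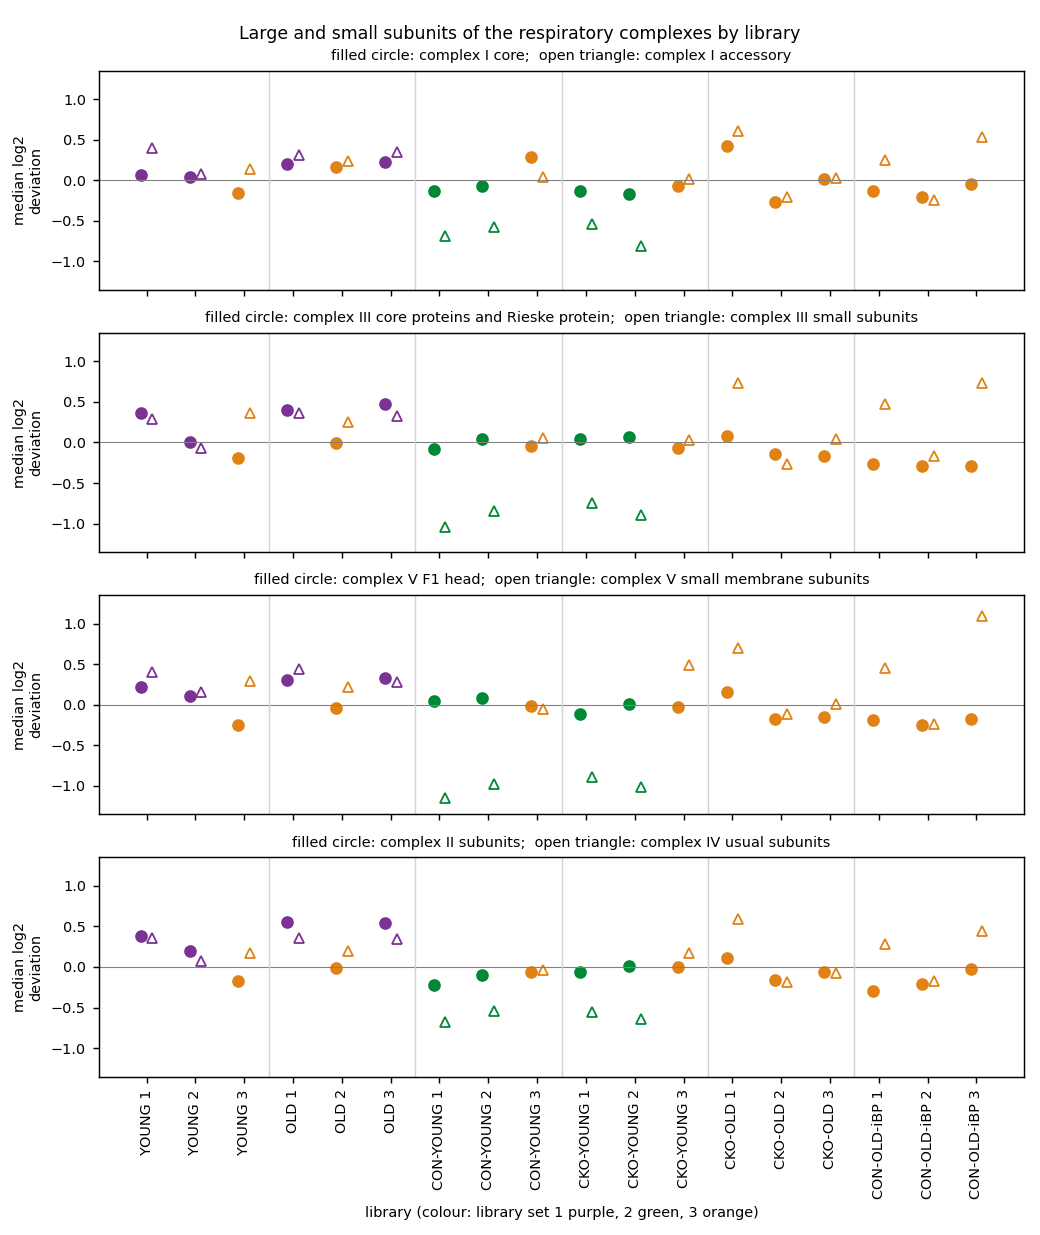
Median deviation (log2 scale, from each gene's mean over the 18 libraries) by role in each library. Filled circles are the core subunits of complexes I and III and the F1 head of complex V. Open triangles are the complex I accessory, small complex III and small membrane complex V subunits. In the last panel circles are complex II and triangles the usual complex IV subunits. The triangles of the 4 set 2 libraries lie between -1.15 and -0.54 while the circles of the same libraries lie between -0.22 and 0.08, and in 6 set 3 libraries, CON-OLD-iBP 3 among them, the triangles lie above the circles in every panel.

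In 6 of the 10 set 3 libraries the small subunits lay above the large ones in complexes I, III and V, and the usual complex IV subunits above complex II: YOUNG 3, OLD 2, CKO-YOUNG 3, CKO-OLD 1, CON-OLD-iBP 1 and CON-OLD-iBP 3. In YOUNG 3 the small and large complex III subunits stood at 0.37 and -0.19, and in OLD 2 at 0.26 and -0.01. Among these 6, the small subunits of complexes I and III and the usual complex IV subunits were highest in the last 3. Small complex III subunits had a median deviation of 0.73 in CKO-OLD 1, 0.47 in CON-OLD-iBP 1 and 0.73 in CON-OLD-iBP 3, where the large ones stood at 0.08, -0.26 and -0.28. Small membrane subunits of complex V were at 0.70, 0.45 and 1.10 in the same libraries, and at 0.49 in CKO-YOUNG 3. Other small-protein gene families moved only in part with these values: mitochondrial ribosomal protein genes stood at -0.25 to -0.18 in set 2 and 0.33, 0.18 and 0.35 in CKO-OLD 1, CON-OLD-iBP 1 and CON-OLD-iBP 3, and cytosolic ribosomal protein genes at -0.21 to -0.04 in set 2 and 0.41, 0.05 and 0.51. The 4 set 2 libraries also had the highest proliferation markers (1089.7 to 1167 summed CPM, against 197 to 862 elsewhere) and smooth muscle and pericyte markers (6654 to 8047 summed CPM, against 1478 to 5960.4). The part of these markers, of depth and of RNA handling in the subunit levels was not tested.

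No member passed the adjusted threshold of 0.05 in edgeR's quasi-likelihood test in any of the 7 comparisons between groups. The comparisons below give what the counts, medians and single members show beside the background of all 16566 genes. Each is followed by its value within set 3, whose libraries are found in every group, with 1 YOUNG, 1 OLD, 1 CON-YOUNG and 1 CKO-YOUNG library there and all 3 of CKO-OLD and of CON-OLD-iBP.

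**Figure D3:**
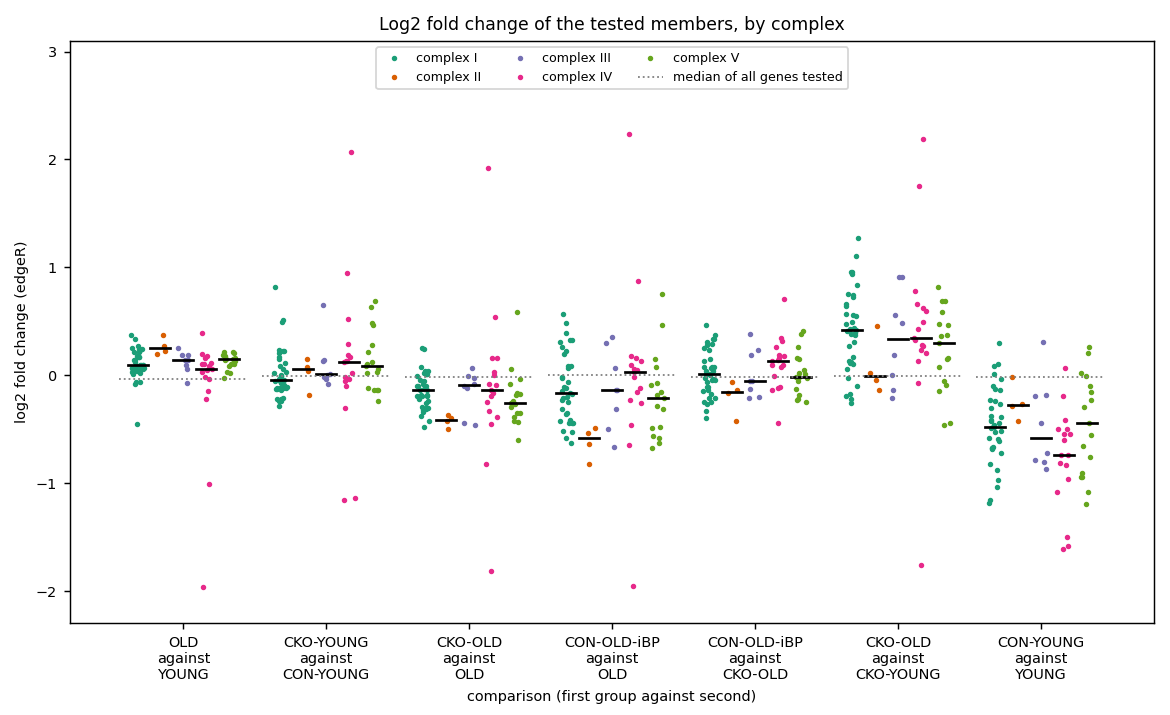
Log2 fold change (edgeR) of each of the 83 tested members in the 7 comparisons, coloured by complex, with a black bar at each complex's median and a dotted line at the median of all genes tested. All complexes lie mostly below 0 in CON-YOUNG against YOUNG. Complexes I, III, IV and V lie mostly above 0 in CKO-OLD against CKO-YOUNG, and complex II lies lowest in CON-OLD-iBP against OLD.

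Most wild-type subunit genes had small positive estimates in OLD against YOUNG, and none was called. Of 83 members, 71 had a positive log2 fold change, with a median of 0.11 against -0.03 over all genes tested. Other lists leaned the same way: 74 of 81 cytosolic and 66 of 78 mitochondrial ribosomal protein genes were positive (both medians 0.13). So were 16 of 17 citric acid cycle genes (0.20), but only 7 of 13 regulators of mitochondrial biogenesis (0.01). By edgeR 0 members and 0% of all genes passed the adjusted threshold, 1 member had an unadjusted p under 0.05 (3.34% of genes did), and DESeq2 called 0 (0.208% of genes). All 7 core subunits of complex I and all 4 complex II genes were positive, with medians of 0.24 and 0.25, the highest among the roles. Ndufv1, which carries the NADH-binding site, was 72.3, 65.3 and 86.1 CPM in YOUNG and 91.1, 102 and 96.8 CPM in OLD. The groups did not overlap, and the log2 fold change was 0.38 (SE 0.17, adjusted p = 1). In all, 8 members were higher in OLD without overlap (5.73% of genes were) and 0 were lower (5.63%). They included the complex I core genes Ndufs1, Ndufs3, Ndufs7 and Ndufv1, and Ndufc1, Cox5a and Uqcrc1, genes read from the values. The complex II estimates ran from 0.20 to 0.38. Sdha, the flavoprotein that oxidises succinate, was 212, 222 and 160.3 CPM in YOUNG and 278, 212 and 281 CPM in OLD. OLD 1 and OLD 3 held the high values, and OLD 2 lay among the YOUNG libraries. The members named for the largest difference in their complexes also overlapped: Uqcrc2 (log2 fold change 0.26, SE 0.17), Atp5c1, the F1 gamma subunit (0.22, SE 0.19), and Ndufa12 (-0.45, SE 0.37). Within set 1 the median over members was 0.15 and within set 3 it was 0.08. Osteoclast markers had a median log2 fold change of 3.77, with 7 of 10 higher at an unadjusted p under 0.05 and summed levels of 2235, 327 and 2295 CPM in OLD against 237 to 479 CPM in YOUNG. Osteoblast markers had a median of -0.83, with 8 of 12 lower without overlap. The part of these markers was not tested.

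Between young knockout and young control cells, the estimates of the members were about evenly spread around no difference. The median log2 fold change of CKO-YOUNG against CON-YOUNG was 0.02, against -0.01 over all genes, and 45 of 83 members were positive. By edgeR 0 members passed, against 0.127% of genes, 1 had an unadjusted p under 0.05 (5.48% of genes did), and DESeq2 called 0 (1.15% of genes). That member was Cox6b2, an isoform of complex IV subunit 6B best known from testis. Its levels were 1.09, 0.772 and 1.47 CPM in CON-YOUNG and 2.25, 1.31 and 10.5 CPM in CKO-YOUNG. CKO-YOUNG 3, the library with both Xist and Ddx3y, alone was high, the groups overlapped, and the log2 fold change was 2.07 (SE 0.68, adjusted p = 0.54). The largest differences in complexes I, III and V rested on that library too. Ndufb1, a small accessory subunit, was 5.13, 4.72 and 9.63 CPM in CON-YOUNG and 6.21, 4.59 and 23.6 CPM in CKO-YOUNG (log2 fold change 0.82, SE 0.52). Uqcrb, which sits beside cytochrome b in complex III, was 15.2, 17.6 and 28.5 CPM in CON-YOUNG and 20.1, 19.7 and 56.8 CPM in CKO-YOUNG (0.66, SE 0.38). In both genes the replicate 3 library of each group was the highest. The 5 small membrane subunits of complex V were all positive, with a median of 0.48, and Atp5k had the largest difference in that complex (0.69, SE 0.54). Without overlap, 5 members were higher (5.32% of genes were) and 3 lower (3.19%). Leaving out 1 library at a time moved the median from -0.20 to 0.23, so its sign depended on which library was left out, and a comparison of the replicate 3 libraries alone called 4 members higher (3.39% of genes were), Atp5mpl, Ndufb9, Cox7a1 and Cox6b2 (2.83, adjusted p = 0.0331). With 1 library on each side, that fit assumes that each varies like the libraries of the other groups.

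In old knockout cells set against wild-type OLD, most members had negative estimates. The median log2 fold change was -0.18, against -0.01 for all genes, and 19 of 83 were positive. By edgeR 0 passed (0.00604% of genes did), and DESeq2 called 0 (0.933% of genes). At an edgeR unadjusted p under 0.05, 8 of the 83 members were lower and 0 higher. Of all 16566 genes tested, 716 were lower and 636 higher by that measure (8.16% in either direction). Without overlap, 4 members were lower (8.47% of genes were) and 1 was higher (8.9%). Uqcrc2, the second core protein of complex III, was 145, 98.6 and 147 CPM in OLD and 105, 89.4 and 88.5 CPM in CKO-OLD, a log2 fold change of -0.46 (SE 0.17, adjusted p = 0.55). Ndufb5 was 44.0, 30.1 and 45.2 CPM in OLD and 31.3, 27.7 and 26.8 CPM in CKO-OLD (-0.48, SE 0.19, adjusted p = 0.59). In both genes OLD 1 and OLD 3 were high and OLD 2 lay within or next to the CKO-OLD values. Atp5e showed the same order, at 104, 57.1 and 111 CPM in OLD and 76.8, 54.9 and 47.7 CPM in CKO-OLD (-0.60, SE 0.36). Against OLD 2 alone, the set 3 library, the median over members was -0.03. Macrophage markers moved the same way, with summed levels of 11237, 1418 and 11217 CPM in OLD and 1382 to 5911 CPM in CKO-OLD, and their part in the result was not tested. The log2 fold change of CKO-YOUNG against CON-YOUNG was also subtracted from that of CKO-OLD against OLD. This difference had a median of -0.22 over members, and of -0.09 with a term for library set. By edgeR 0 members were called (0% of genes), and 6 were lower at an unadjusted p under 0.05 (4.81% of genes in either direction). DESeq2 called 0 (0.271% of genes). CKO-OLD and OLD differ in mouse line and library set, while CKO-YOUNG and CON-YOUNG both carry Ocncre Ai14 and hold the same sets. A change of the knockout effect with age therefore cannot be told apart from line and library set here.

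The smallest adjusted p-values were in old controls given iBP, set against OLD. No member passed in edgeR, and the estimates differed by role. The median log2 fold change was -0.59 for the 4 complex II genes, -0.36 for the 7 core subunits of complex I, -0.50 for the 3 large subunits of complex III and -0.57 for the 5 of the F1 head. It was -0.28 for the 4 peripheral stalk and -0.29 for the 3 c-ring genes of complex V, and -0.10 for the 30 accessory subunits of complex I, of which 18 were negative. It was 0.07 for the small subunits of complex III, 0.01 for the usual complex IV subunits and 0.15 for the small membrane subunits of complex V. Atp5k, one of these small membrane subunits, had the largest difference in complex V and was higher in CON-OLD-iBP (0.75). Over all 83 members the median was -0.15, against 0.00 for all genes tested. A similar order was seen in CKO-OLD against OLD, so it was not particular to the iBP group. Medians there were -0.41 for complex II, -0.44 for large complex III subunits, -0.35 for the F1 head and -0.20 for the complex I core. Small complex III subunits stood at -0.03, usual complex IV subunits at -0.15 and small membrane subunits of complex V at -0.16.

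By edgeR 0 members passed (0.0241% of genes did), with 1 higher and 21 lower at an unadjusted p under 0.05 (10.1% and 13.3% of genes). DESeq2 called 7 members lower and 0 higher (5.68% and 4.42% of the genes it tested): Sdha, Uqcrc2, Ndufa10, Atp5pb, Sdhd, Atp5a1 and Uqcrfs1. Without overlap, 20 members were lower (15.8% of genes were) and 1 was higher (14.3%). The counts of lower members by unadjusted p and without overlap were thus above the share of all genes, in a comparison in which many genes differed. The DESeq2 count was nearer to its share, which was taken over 20689 genes without the filter on low counts.

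Sdha was 278, 212 and 281 CPM in OLD (257 ± 38.5, SD, n = 3) and 137, 185 and 113 CPM in CON-OLD-iBP (145 ± 36.6, SD, n = 3). All CON-OLD-iBP libraries lay below all OLD ones. The log2 fold change was -0.82 (SE 0.19), with an adjusted p of 0.0538 by edgeR and 0.00201 by DESeq2. Uqcrc2 was 145, 98.6 and 147 CPM in OLD and 88.0, 76.9 and 81.3 CPM in CON-OLD-iBP, again without overlap (-0.66, SE 0.17, adjusted p = 0.0609 by edgeR and 0.00999 by DESeq2). Ndufs8, a core iron-sulfur subunit of complex I, was 50.8, 33.9 and 55.9 CPM in OLD and 31.9, 27.5 and 31.3 CPM in CON-OLD-iBP (-0.63, SE 0.22, adjusted p = 0.107). The other complex II genes were lower as well. Sdhd, a membrane anchor, was 108, 65.9 and 104 CPM in OLD and 57.0, 50.3 and 70.8 CPM in CON-OLD-iBP (-0.64, SE 0.20, adjusted p = 0.0828 by edgeR and 0.0405 by DESeq2). Sdhb, the iron-sulfur subunit, was 113, 76.1 and 116 CPM in OLD and 66.9, 65.9 and 78.4 CPM in CON-OLD-iBP (-0.53, SE 0.18). Sdhc was 162, 108 and 163 CPM in OLD and 93.3, 93.9 and 121 CPM in CON-OLD-iBP (-0.49, SE 0.23). In Sdhb, Sdhc and Sdhd the value of OLD 2 fell among those of CON-OLD-iBP.

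These differences were smaller against OLD 2 alone, the OLD library of set 3, at -0.55 for Sdha, -0.27 for Uqcrc2, -0.16 for Ndufs8 and -0.11 for Sdhb. The median over members was 0.00 there, with roles of either sign. It was -0.13 for complex II, -0.20 for the complex I core, -0.27 for large complex III subunits and -0.22 for the F1 head. It was -0.03 for complex I accessory subunits, -0.12 for the peripheral stalk and -0.05 for the c-ring. Small complex III subunits stood at 0.11, usual complex IV subunits at 0.08 and small membrane subunits of complex V at 0.24. Without OLD 2, edgeR called 11 members lower (5.17% of genes were), and without CON-OLD-iBP 2 it called 1 lower (0.38% of genes). OLD 1 and OLD 3 also held macrophage markers at 11237 and 11217 summed CPM and osteoclast markers at 2235 and 2295 CPM, against 1418 and 327 CPM in OLD 2 and 544 to 971 and 315 to 492 CPM in CON-OLD-iBP. All 18 macrophage markers tested had lower estimates in CON-OLD-iBP, with 16 at an unadjusted p under 0.05. OLD 1 and OLD 3 held 481 and 454 CPM of Xist and 0 of Ddx3y, while OLD 2 and CON-OLD-iBP held 36.2 to 75.6 CPM of Ddx3y. The part of these markers in the subunit levels was not tested.

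Against the old knockout, all in set 3, iBP-treated controls differed in many genes but hardly in these. The median over members was 0.01, against -0.01 for all genes, with 42 of 83 positive. By edgeR 0 members passed, where 1.29% of all genes did, 2 were lower at an unadjusted p under 0.05 (10.1% of genes were) and DESeq2 called 0 (7.01% of genes). A fit with separate coefficients for each library set called 1 member lower, where 18.7% of all genes passed. Sdha, which had 1 of these unadjusted p-values, was 174, 211 and 199 CPM in CKO-OLD, of which the first fell below CON-OLD-iBP 2 (-0.42, SE 0.19, adjusted p = 0.226). The largest differences of the other complexes, in Ndufa12 (0.46, SE 0.37), Uqcrh (0.38, SE 0.40) and Atp5md (0.41, SE 0.49), were within the spread of the libraries. Without overlap, 5 members were lower (16% of genes were) and 0 higher (14.5%).

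Between old and young knockout cells most small subunits had positive estimates, and none was called. CKO-YOUNG 1 and 2, of set 2, held the low values. The median log2 fold change was 0.37, against -0.00 for all genes, and 66 of 83 members were positive. By edgeR 0 passed (0.7% of genes did), 16 were higher and 2 lower at an unadjusted p under 0.05 (11.4% and 13.1% of genes), and DESeq2 called 2 higher (5.37% of genes), Ndufv3 and Uqcr11. All 12 usual complex IV subunits and all 5 small subunits of complex III and of the membrane part of complex V were positive. Ndufa3 was 16.1, 12.2 and 49.2 CPM in CKO-YOUNG and 78.9, 46.8 and 61 CPM in CKO-OLD (log2 fold change 1.27, SE 0.52, adjusted p = 0.153). CKO-YOUNG 3 lay within the CKO-OLD values. Ndufv3, an accessory subunit at the NADH-oxidising tip of complex I, was 29.6, 20.4 and 51.8 CPM in CKO-YOUNG and 83.9, 57.1 and 54.2 CPM in CKO-OLD, without overlap (0.94, SE 0.28, adjusted p = 0.0772 by edgeR and 0.0186 by DESeq2). The lower members were the F1 subunits Atp5a1 and Atp5b. Atp5b was 1007, 1102 and 731 CPM in CKO-YOUNG and 686, 678 and 699 CPM in CKO-OLD, without overlap (-0.46, SE 0.19, adjusted p = 0.162). Uqcrh (0.91, SE 0.40) and Atp5k (0.81, SE 0.54) had the largest positive differences of complexes III and V. Without CKO-YOUNG 3, edgeR called 18 members, 17 higher (7.66% of genes were) and 1 lower (8%), and against CKO-YOUNG 3 alone, within set 3, the median was 0.04 and that of Atp5k was -0.21. Without overlap, 7 members were higher (16.3% of genes) and 4 lower (15.2%). Macrophage markers had a median of 2.48 in this comparison, with 12 of 18 called higher by DESeq2, and smooth muscle and pericyte markers a median of -2.48, with 4 of 10 called lower. The part of these markers was not tested.

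Between the young groups without the deletion, the Ocncre Ai14 line and wild type, most estimates were negative and none was called. The median log2 fold change of CON-YOUNG against YOUNG was -0.50, against -0.01 for all genes, and 9 of 83 members were positive. By edgeR 0 passed, where 5.55% of genes did (3.83% lower), 1 was higher and 23 were lower at an unadjusted p under 0.05 (10.7% and 12.3% of genes), and DESeq2 called 3 lower (6.43% of genes): Cox7a2, Atp5e and Atp5mpl. Without overlap, 27 members were lower (13% of genes were) and 1 higher (10.1%). All 30 complex I accessory subunits had negative estimates, with a median of -0.52, while the medians of the complex I core and the F1 head were 0.01 and 0.02. All 4 complex II genes were negative too, with a median of -0.28.

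Cox7a2, the usual isoform of complex IV subunit 7A, was 95.8, 84.2 and 67.4 CPM in YOUNG and 37.4, 42.0 and 59.4 CPM in CON-YOUNG, without overlap (-0.83, SE 0.25, adjusted p = 0.063 by edgeR and 0.0187 by DESeq2). Atp5e was 102, 71.2 and 67.7 CPM in YOUNG and 32.7, 34.6 and 38.1 CPM in CON-YOUNG (-1.19, SE 0.37, adjusted p = 0.0698 by edgeR and 0.0198 by DESeq2). All 3 CON-YOUNG libraries were low for Atp5e, the third included. Uqcrb had the largest difference in complex III (-0.87). Ndufa1, a small membrane subunit, was 46, 32.6 and 56.2 CPM in YOUNG and 14.0, 13.4 and 33.1 CPM in CON-YOUNG, whose replicate 3 library overlapped YOUNG (-1.15, SE 0.42, adjusted p = 0.117). Without CON-YOUNG 3, edgeR called 15 members lower (10% of genes were), and without YOUNG 3 it called 1 lower (5.16% of genes). With a term for library set the median over members was -0.05, and between the replicate 3 libraries alone it was -0.13. Macrophage markers differed far more, with all 18 called lower by edgeR, at 3915 to 15870.3 summed CPM in YOUNG and 215 to 478 CPM in CON-YOUNG, and their part was not tested.

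The alternative isoforms varied more than any other members, and none differed between groups by the test. Ndufa4l2, a paralog of Ndufa4 known to be induced at low oxygen, was 23.1, 26.2 and 404 CPM in YOUNG, 150.2, 84.3 and 156 CPM in OLD and 38.4, 14.1 and 161 CPM in CON-YOUNG. It was 17.4, 14.7 and 63.9 CPM in CKO-YOUNG, 202, 112 and 123 CPM in CKO-OLD and 322, 124 and 267 CPM in CON-OLD-iBP. YOUNG 3 held the highest level, and within YOUNG, CON-YOUNG and CKO-YOUNG the replicate 3 library was far above the other 2. The only comparison without overlap was CKO-OLD against CKO-YOUNG (log2 fold change 2.18, SE 1.04, adjusted p = 0.209). Ndufa4 itself stayed between 49.2 and 103 CPM, so the share of the pair's counts on Ndufa4l2 ran from 19.4% in YOUNG 1 to 84.0% in YOUNG 3, a share that compares libraries only. The overlapping gene Shmt2 moved the other way, at 352 and 390.0 CPM in CON-YOUNG 1 and 2 and 129.8 CPM in YOUNG 3.

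Cox4i2, the isoform of subunit 4 linked to low oxygen and the lung, was 3.66, 3.02 and 59.0 CPM in YOUNG, 6.35, 4.60 and 5.91 CPM in OLD, 20.1, 8.84 and 34.7 CPM in CKO-OLD and 44.5, 6.46 and 28.3 CPM in CON-OLD-iBP. It stayed between 5.42 and 10.6 CPM in CON-YOUNG and CKO-YOUNG. All CKO-OLD and CON-OLD-iBP libraries were above all OLD ones, with log2 fold changes of 1.92 (SE 0.93, adjusted p = 0.625) and 2.23 (SE 0.94, adjusted p = 0.172). The usual isoform Cox4i1 showed the set 2 pattern instead, at 208 to 228 CPM in those 4 libraries and 264 to 518 CPM in the others. Chondrocyte markers were highest in YOUNG 3 (16123 summed CPM), CON-OLD-iBP 1 and CKO-OLD 3 (10273 CPM), which also held the 3 highest Cox4i2 levels, and their part was not tested. The muscle isoforms stayed low: Cox6a2 was at most 3.24 CPM and Cox7a1 at most 1.80 CPM in any library. Cox8a, the usual subunit 8, was 73.3 to 91.6 CPM in set 2 and 135 to 217 CPM elsewhere, and Cox6b1 was 54.9 to 65.7 CPM and 103 to 197 CPM.

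**Figure D4:**
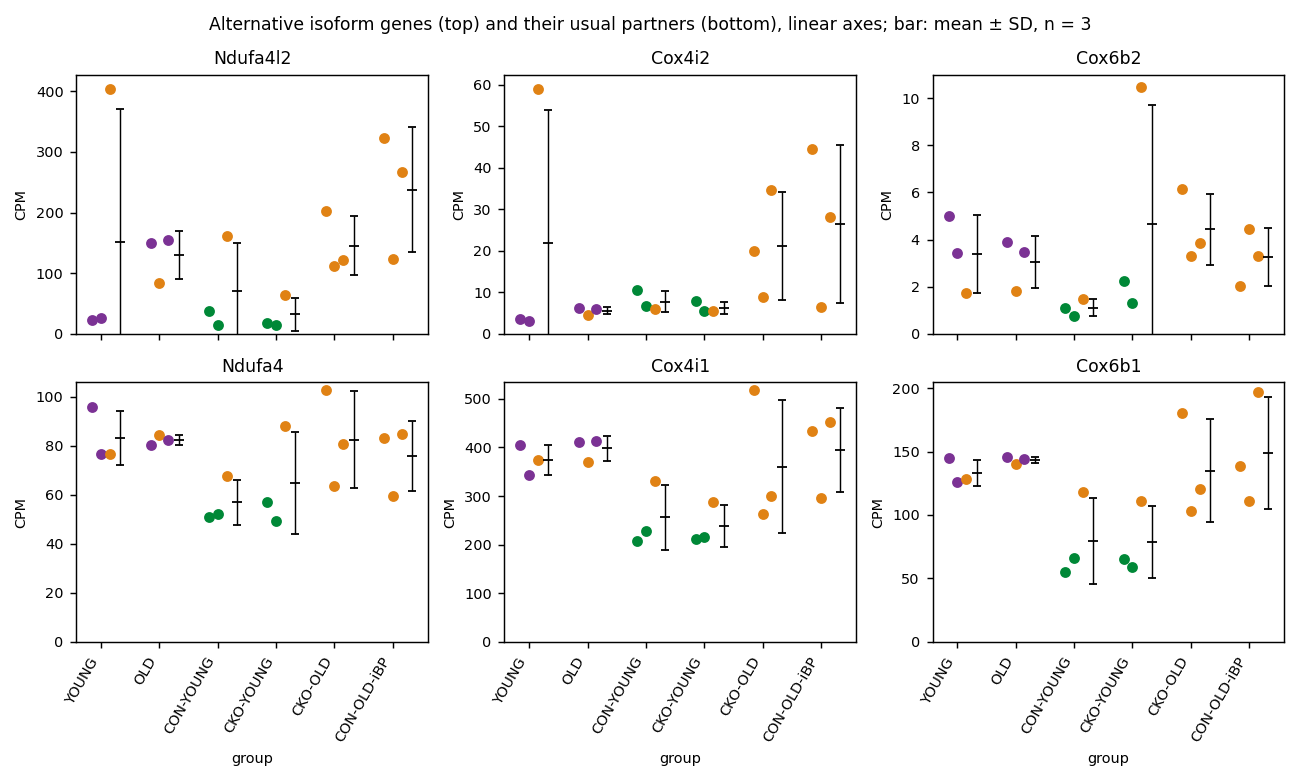
CPM of 3 alternative complex IV isoform genes (top) and their usual partners (bottom) in each library, by group, with the mean and SD of the 3 libraries (bars cut off at 0; purple, green and orange mark library sets 1, 2 and 3). Single libraries set the high values of the alternative isoforms, such as YOUNG 3 for Ndufa4l2 and Cox4i2 and CKO-YOUNG 3 for Cox6b2, while the partners are lowest in the green points.

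Of 48 tested assembly factors, which insert cofactors and join subunits without staying in the complexes, 1 was called by edgeR in any comparison. It was Ttc19, a complex III factor, at 19.4, 26.1 and 21.8 CPM in CKO-OLD and 42.7, 34.0 and 38.8 CPM in CON-OLD-iBP (log2 fold change 0.78, SE 0.14, adjusted p = 0.0242). Among 13 regulators of mitochondrial biogenesis, 1 was called, again in that comparison: Gabpb1, a subunit of GABP, at 22.0, 18.0 and 17.5 CPM in CKO-OLD and 36.0, 25.4 and 39.9 CPM in CON-OLD-iBP (0.82, SE 0.19, adjusted p = 0.0472). In both genes the CON-OLD-iBP libraries were higher, with means of 22.5 ± 3.40 and 38.5 ± 4.35 CPM for Ttc19 and 19.2 ± 2.48 and 33.8 ± 7.50 CPM for Gabpb1 (SD, n = 3), where 0.718% of all genes were called higher. For the 17 citric acid cycle and pyruvate dehydrogenase genes and the 78 mitochondrial ribosomal protein genes edgeR called 0 in all 7 comparisons. The most unadjusted p-values under 0.05 among citric acid cycle genes were 2 higher and 7 lower, in CON-OLD-iBP against OLD (10.1% and 13.3% of all genes). DESeq2 called 1 higher and 3 lower there (4.42% and 5.68% of the genes it tested), and the list's median was -0.34. Among mitochondrial ribosomal protein genes they were 7 higher and 4 lower, in CKO-OLD against CKO-YOUNG (11.4% and 13.1% of all genes). DESeq2 called 1 higher (5.37% of the genes it tested) and 3 lower there, and the median was 0.12. Citric acid cycle genes did not share the set 2 pattern: their summed level was 2232 to 2469 CPM in set 2, the highest of the sets, against 1995 to 2236 CPM in set 1 and 1744 to 2161 CPM in set 3.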

How the data were processed

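RNA-seq of 18 libraries in 6 groups was used; 8 CUT&Tag samples of the 26 in the series were not analysed here. The values are raw read counts per gene that the authors deposited as 1 table. Per the submitters' processing notes, FastQC, Trim Galore, HISAT2 and the mm39 genome were used; which versions, counting tool, annotation and strand setting applied is not given in the sources used here. Coordinates come from RefSeq's GRCm38.p6 tables, a different build, and serve only for the promoter windows and for which genes overlap. All 87 members matched the RefSeq table, 84 the gene name table and 69 a promoter.

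Genes were kept with edgeR 4.0.16's filterByExpr (minimum count 10, minimum total 15), scaled by TMM, and tested two-sided with the robust quasi-likelihood F test in 1 fit of all 18 libraries with 1 coefficient per group (12 residual degrees of freedom). P-values were adjusted by Benjamini-Hochberg over all 16566 genes, with a threshold of 0.05. A log2 fold change is the fitted one; log2 CPM deviations used a pseudocount of 0.1. One count was worth 0.0129 to 0.0216 CPM. The fit ran in R 4.3.3 with limma 3.58.1. DESeq2 was version 1.42.0. Figures were drawn in matplotlib 3.10.9 under Python 3.11.15. The fit was tested on simulated data.

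The members, gene lists, library sets (Malat1 above 0.05% of counts in set 3) and tests were chosen with earlier results of these data known. In each comparison the member with the largest fold change per complex with at least 5 CPM was named, with complex II and the isoform pairs, described in ranges where nothing turned on them. The grouping by role, and Ndufs1, Ndufv1, Ndufv3, Uqcrc1, Uqcr11, Atp5a1, Atp5b, Atp5mpl, the other genes listed as called or not overlapping, Ttc19, Gabpb1, Atpif1, Shmt2 and the promoters, were chosen after their values were seen. OLD 1 and OLD 3 were kept as 2 libraries. The values of 1 member are not reported here; it is included in all counts and medians.

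Alternatives were DESeq2, its size factors in edgeR, no filter on low counts, a term for library set, fits within sets (1 coefficient per group and set, 8 residual degrees of freedom), each library left out, and the replicate number of the titles as a block, with its unblocked counterpart. Correlations of same-numbered deviations were all positive in CKO-YOUNG against CON-YOUNG (0.230, 0.274 and 0.314) and in CON-YOUNG against YOUNG (0.168, 0.293 and 0.331). In no other comparison were all of them positive. In these young groups replicates 1 and 2 were of set 1 or 2 and replicate 3 was of set 3. Pairing by number and library set therefore cannot be told apart, and no shared litter or day is stated.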

Additional observations from a re-analysis of the deposited data

How the results depend on the processing

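The edgeR fit of all 18 libraries called 0 members in every comparison, so an alternative could only add calls. DESeq2 called 7 members in CON-OLD-iBP against OLD, 2 in CKO-OLD against CKO-YOUNG and 3 in CON-YOUNG against YOUNG. Within library set 3, 4 were called in CKO-YOUNG against CON-YOUNG, with 1 library on each side, and 1 in CON-OLD-iBP against CKO-OLD. The median log2 fold change of CON-YOUNG against YOUNG was -0.050 with a term for library set and -0.13 within set 3, against -0.50. Leaving out 1 library at a time gave 0 to 11 called members in CON-OLD-iBP against OLD, 0 to 18 in CKO-OLD against CKO-YOUNG and 0 to 15 in CON-YOUNG against YOUNG, whose median ran from -0.78 to -0.41; the cause was not tested. The highest counts came without OLD 2, CKO-YOUNG 3 and CON-YOUNG 3, the set 3 libraries of those groups. With the replicate block 0 members were called in every comparison, so the block changed no call. The medians with it were 0.02 in CKO-YOUNG against CON-YOUNG and -0.52 in CON-YOUNG against YOUNG. DESeq2's size factors in edgeR and no filter on low counts also gave 0 calls. In the simulated OLD against YOUNG comparison of 16566 genes, 2% of 50 genes changed 1.5-fold were recovered, 20% of 50 changed 2-fold, 46% of 50 changed 4-fold and 68% of 50 changed 8-fold, with 5 false calls. The changed genes were drawn at random from all genes tested, so these shares do not give the recovery among the members. The other comparisons were not simulated.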

Other observations

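Atpif1, the inhibitor that keeps ATP synthase from running backwards, is not a subunit and lies outside the symbol rule. Its level was 136, 51.1 and 137 CPM in OLD and 32.9, 38.5 and 56.8 CPM in CON-OLD-iBP. OLD 1 and OLD 3 were high, and OLD 2 lay among the CON-OLD-iBP libraries. The log2 fold change was -1.33 (SE 0.39, adjusted p = 0.0746 by edgeR).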
